A study of Mus musculus with 4 samples.

Results

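The genes of the major histocompatibility complex (MHC) and of antigen presentation were measured in the testes of hypogonadal (hpg) mice on 4 one-colour oligonucleotide arrays. The members were chosen by gene symbol alone: every probe set whose only annotated symbol begins with H2- or is B2m, Tap1, Tap2, Tapbp, Cd74, Ciita or a Cd1d gene. This gave 49 probe sets for 36 genes, of 12422 probe sets and 8251 named genes on the array. The rule itself used no measured value, though it was set with earlier results of these data known. In hpg mice gonadotropin-releasing hormone is missing, the pituitary drive to the testis is low and little testosterone is made. The T+T group has 3 arrays by title, and T+O has 1. All 4 descriptions state a first treatment with testosterone propionate, an injectable ester of testosterone, followed by its withdrawal, and 3 of them (T+T replicates 2 and 3 and T+O replicate 1) give 2 weeks for it. T+T replicate 1 is described as given the ester again for 4 hours, T+O replicate 1 as withdrawn only, while for T+T replicates 2 and 3 no renewed ester is mentioned, so that these arrays count as T+T by title only. No label gives strain, age, pooling or whether the arrays came from separate animals, so p-values measure only the spread between these arrays.

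MHC class I molecules consist of a heavy chain (H2-K and H2-D are the classical ones of the mouse) and the light chain beta-2 microglobulin. The peptides they show to CD8 T cells are cut by the proteasome, pumped into the endoplasmic reticulum by TAP and loaded with the help of tapasin. Class II molecules are pairs of an alpha and a beta chain, are made mainly by macrophages, dendritic cells and B cells, and need the invariant chain CD74, the peptide editor DM and the transcriptional master switch CIITA. Haploid germ cells of the testis are known for little classical class I, whereas the macrophages between the tubules carry class II. Interferon raises most genes of both classes.

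Of the 49 probe sets, 22 have names that mark probes shared with other transcripts or chosen under relaxed rules: 14 end in _f_at (shared within a gene family), 3 in _g_at, 2 in _s_at, 2 in _i_at and 1 in _r_at. The other 27 have plain _at names. Some class I heavy chain genes are close copies of each other, so a class I probe set may read several of them. The alleles of the animals may also differ from those on the array. Members that share probes are not independent measurements. The RefSeq annotation of the C57BL/6J genome calls 7 of the 36 genes pseudogenes (H2-K2, H2-D4, H2-Bl, H2-Q5, H2-Ea, H2-Pa and Cd1d2), and 31 of the 36 lie on chromosome 17.

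The promoters of the heavy chain genes H2-K1, H2-D1 and H2-Q4 are close copies too, while that of H2-M10.1 is not. The following windows run from 250 bases before to 50 bases after the start site (RefSeq, GRCm38.p6, each on the strand of its gene). The first reason to show them is that the H2-K1 and H2-D1 family probe sets and B2m were highest on T+T replicate 3. The plain H2-K1 probe set 97700_at was highest on T+T replicate 2 instead. The second is that H2-Q4 and H2-M10.1 100305_g_at were 1.5-fold higher than T+O on every T+T array. Capitals mark 3 motifs searched on both strands: the core of the interferon response element (GAAA, any 2 bases, GAAA), the kappa B type GGGANTNCC, and the Y box core ATTGG. The windows lie at chr17:34000284-34000583 (minus strand) for H2-K1, chr17:35262844-35263143 (plus) for H2-D1, chr17:35379367-35379666 (plus) for H2-Q4, chr2:122147437-122147736 (plus) for B2m and chr17:36326101-36326400 (minus) for H2-M10.1.
H2-K1: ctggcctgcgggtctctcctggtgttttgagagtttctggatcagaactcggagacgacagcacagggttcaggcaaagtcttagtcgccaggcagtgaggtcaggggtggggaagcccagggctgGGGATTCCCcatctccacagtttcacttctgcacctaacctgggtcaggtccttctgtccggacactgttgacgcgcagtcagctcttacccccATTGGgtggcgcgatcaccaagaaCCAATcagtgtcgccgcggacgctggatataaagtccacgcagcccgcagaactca
H2-D1: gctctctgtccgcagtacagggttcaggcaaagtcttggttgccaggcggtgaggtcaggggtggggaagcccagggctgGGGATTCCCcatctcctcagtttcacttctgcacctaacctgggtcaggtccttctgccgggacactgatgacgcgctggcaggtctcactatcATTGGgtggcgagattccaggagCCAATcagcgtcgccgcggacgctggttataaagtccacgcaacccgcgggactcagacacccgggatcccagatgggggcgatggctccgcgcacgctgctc
H2-Q4: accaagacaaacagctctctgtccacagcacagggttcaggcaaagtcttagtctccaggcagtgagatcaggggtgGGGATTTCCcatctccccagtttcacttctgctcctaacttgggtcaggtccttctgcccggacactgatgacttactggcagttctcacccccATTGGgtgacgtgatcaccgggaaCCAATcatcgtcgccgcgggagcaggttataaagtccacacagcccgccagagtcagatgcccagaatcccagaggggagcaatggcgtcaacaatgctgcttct
B2m: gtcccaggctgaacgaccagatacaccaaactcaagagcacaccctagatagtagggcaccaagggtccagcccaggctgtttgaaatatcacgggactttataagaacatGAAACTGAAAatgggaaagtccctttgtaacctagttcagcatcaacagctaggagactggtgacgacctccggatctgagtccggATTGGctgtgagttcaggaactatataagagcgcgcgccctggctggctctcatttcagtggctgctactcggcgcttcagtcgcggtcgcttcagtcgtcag
H2-M10.1: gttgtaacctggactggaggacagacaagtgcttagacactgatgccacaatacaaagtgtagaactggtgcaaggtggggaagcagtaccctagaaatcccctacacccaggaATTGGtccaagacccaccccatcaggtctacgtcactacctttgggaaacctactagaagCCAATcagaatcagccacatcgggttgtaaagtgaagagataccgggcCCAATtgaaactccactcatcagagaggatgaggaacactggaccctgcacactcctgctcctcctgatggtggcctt

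The H2-K1 and H2-D1 windows were identical at 217 of 242 aligned positions (89.7%), and H2-K1 and H2-Q4 at 193 of 235 (82.1%). H2-D1 and H2-Q4 were identical at 236 of 300 (78.7%). The best local alignment of H2-K1 with H2-M10.1 spanned only 11 positions. H2-K1 has 2 listed starts, and the window with the lower coordinates is printed. Promoters were listed for 21 of the 36 genes, 24 windows in all. The Y box core was found in 22 of these 24 windows, for 20 of the 21 genes, against 37.4% of the 32851 mouse promoters. The kappa B type motif was found in 6 windows of 5 genes (H2-K1, H2-D1, H2-Q4, H2-M2 and H2-Aa), against 3.95% of all promoters. The interferon core was found in B2m only, against 3.44% of all promoters. These are matches of letters and say nothing of which factor was bound. Only exact letters were searched, so a window without the interferon core may still hold an interferon element in variant letters.

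Signals below are deposited intensities scaled so that the 4 arrays share a common trimmed mean. Differences and the 1.5-fold threshold are on the log2(signal + 10) scale, T+T minus T+O, which understates the change of dim probe sets. As deposited, the trimmed means were 84.1, 72.9 and 124 in T+T replicates 1, 2 and 3 and 106 in T+O, so T+T replicate 3 was the brightest array and was scaled down the most (factor 0.779). For the control transcript Gapdh, the signal at the 3′ end over that at the 5′ end was 0.886, 0.837 and 0.809 in T+T and 1.20 in T+O, and for pyruvate carboxylase it was 1.93, 1.998 and 1.76 in T+T and 3.76 in T+O. For both, T+O lay above all 3 T+T arrays. For the third control, Actb, the ratio was 1.66, 1.40 and 1.17 in T+T and 1.53 in T+O, so T+O lay within the T+T range. The part of these ratios in the results below was not tested. Several testis genes were bright. The spermatid genes Tnp2, Prm1 and Odf1 and the Sertoli gene Clu (probe set 95286_at) had signals between 1566 and 10737 on every array. Not every probe set of such genes was bright. The spermatid gene Prm2 lay between 0.929 and 1.25 on probe set 161229_at and between 25.5 and 58.1 on 160528_at. Tnp1 lay between 8.41 and 27.6 on 161216_at but between 2649 and 3813 on 160533_r_at. The other Clu probe set, 161294_f_at, lay between 683 and 804. 

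No MHC or antigen presentation probe set passed the test, and the values of most nevertheless lay on the higher side in T+T. Of the 29 members with enough signal to be tested, 0 had an adjusted p under 0.05 (limma), 5 (all higher) had an unadjusted p under 0.05 against 3.57% higher and 4.23% lower of all probe sets tested, and over all 7453 probe sets tested 0.0268% passed as higher and 0% as lower. With no filter, 3 of the 49 members had an unadjusted p under 0.05, where 902 of all 12422 probe sets did. Of the 29, 3 had a T+O signal under the filter level and passed it through their T+T signals, among them 1 of the 5. This held for 396 of all 7453 probe sets tested, among them 75 of the 581 with an unadjusted p under 0.05 (limma). Over all 49, 28 of the members had a signal above T+O on all 3 T+T arrays (57.1%), where 29.7% of all 12422 probe sets did. The reverse, a signal below T+O on all 3 T+T arrays, held for 1 member, the DM beta chain gene H2-DMb2, against 23.2% of all probe sets. The median difference over the members was 0.27, against 0.03 over all probe sets, and 41 members (83.7%) had a positive difference and 8 a negative one, where 54.7% of all probe sets had a positive one. Set against T+O singly, 6 members were at least 1.5-fold higher and 3 lower on T+T replicate 1 (backgrounds 7.91% and 11.0%), 10 higher and 3 lower on replicate 2 (7.15% and 10.4%), and 17 higher and 1 lower on replicate 3 (9.65% and 6.96%). By T+T array the members' median was 0.15 for replicate 1, 0.23 for replicate 2 and 0.33 for replicate 3. Most of these gaps were small: 2 members were at least 1.5-fold higher on all 3 T+T arrays (background 1.73%) and 0 at least 1.5-fold lower (background 2.48%). Without T+T replicate 1 the first count became 8 (background 3.03%), without replicate 2 it became 3 (3.21%) and without replicate 3 it became 3 (3.15%). Among the 27 plain _at probe sets, 16 lay above T+O on all 3 T+T arrays (background among plain probe sets 29.9%) and 0 were 1.5-fold higher on all 3 (background 1.74%).

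**Figure D1:**
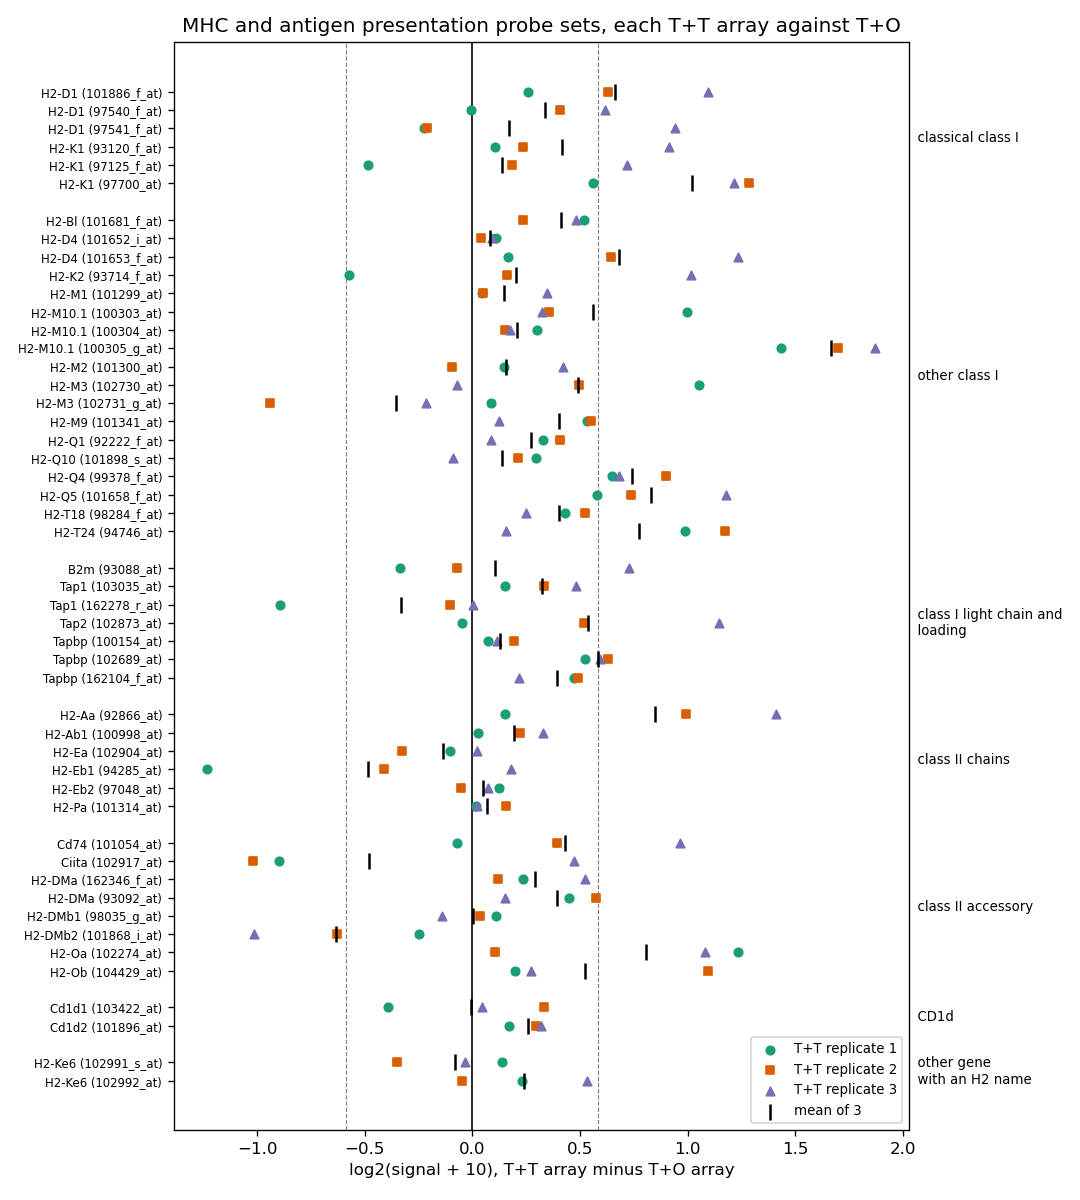
Difference in log2(signal + 10) of each T+T array from the T+O array for all 49 probe sets, grouped by class. Symbols are the 3 T+T arrays, the black tick is their mean, and dashed lines mark 1.5-fold. Most ticks lie right of 0 (41 of 49), and triangles (T+T replicate 3) lead among the classical class I probe sets.

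Classical class I heavy chains (2 genes, 6 probe sets) were highest on T+T replicate 3 in 5 of 6 probe sets, against 31.2% of all probe sets with their highest signal on that array. H2-K1 probe set 93120_f_at had 443, 486 and 785 in T+T replicates 1, 2 and 3 and 412 in T+O. T+T replicates 1 and 2 lay close to T+O here, and replicate 3 lay well above all of them. The difference was 0.42 ± 0.31 (SE; limma, adjusted p = 0.81). H2-K1 probe set 97125_f_at had 51.4, 87.8 and 132 in T+T and 76.0 in T+O, so T+O fell within the T+T range, and its difference was 0.14 ± 0.42 (SE). The third H2-K1 probe set, the plain 97700_at, had another pattern: 18.4, 36.9 and 34.7 in T+T and 9.24 in T+O. All 3 T+T arrays were above T+O, with a difference of 1.02 ± 0.44 (SE; limma, adjusted p = 0.64). Its T+O signal was under the filter level of 22.7, so it was tested only because of its T+T signals.

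H2-D1, the second classical heavy chain, had 3 probe sets, all of the family type. Probe set 101886_f_at had 222, 289.5 and 403 in T+T and 183 in T+O, a difference of 0.66 ± 0.30 (SE; limma, adjusted p = 0.68). Every T+T array was above T+O, with replicate 1 nearest to it. Probe set 97540_f_at had 288, 386 and 448 in T+T and 289 in T+O, a difference of 0.34 ± 0.25 (SE). Probe set 97541_f_at had 29.7, 30.1 and 79.0 in T+T and 36.4 in T+O, a difference of 0.17 ± 0.48 (SE). In the last of these only T+T replicate 3 exceeded T+O. The class median was 0.38 over the 3 T+T arrays but 0.05 for T+T replicate 1, 0.32 for replicate 2 and 0.93 for replicate 3, each against T+O. Without T+T replicate 3, H2-K1 97125_f_at became -0.15 and H2-D1 97541_f_at -0.22.

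**Figure D2:**
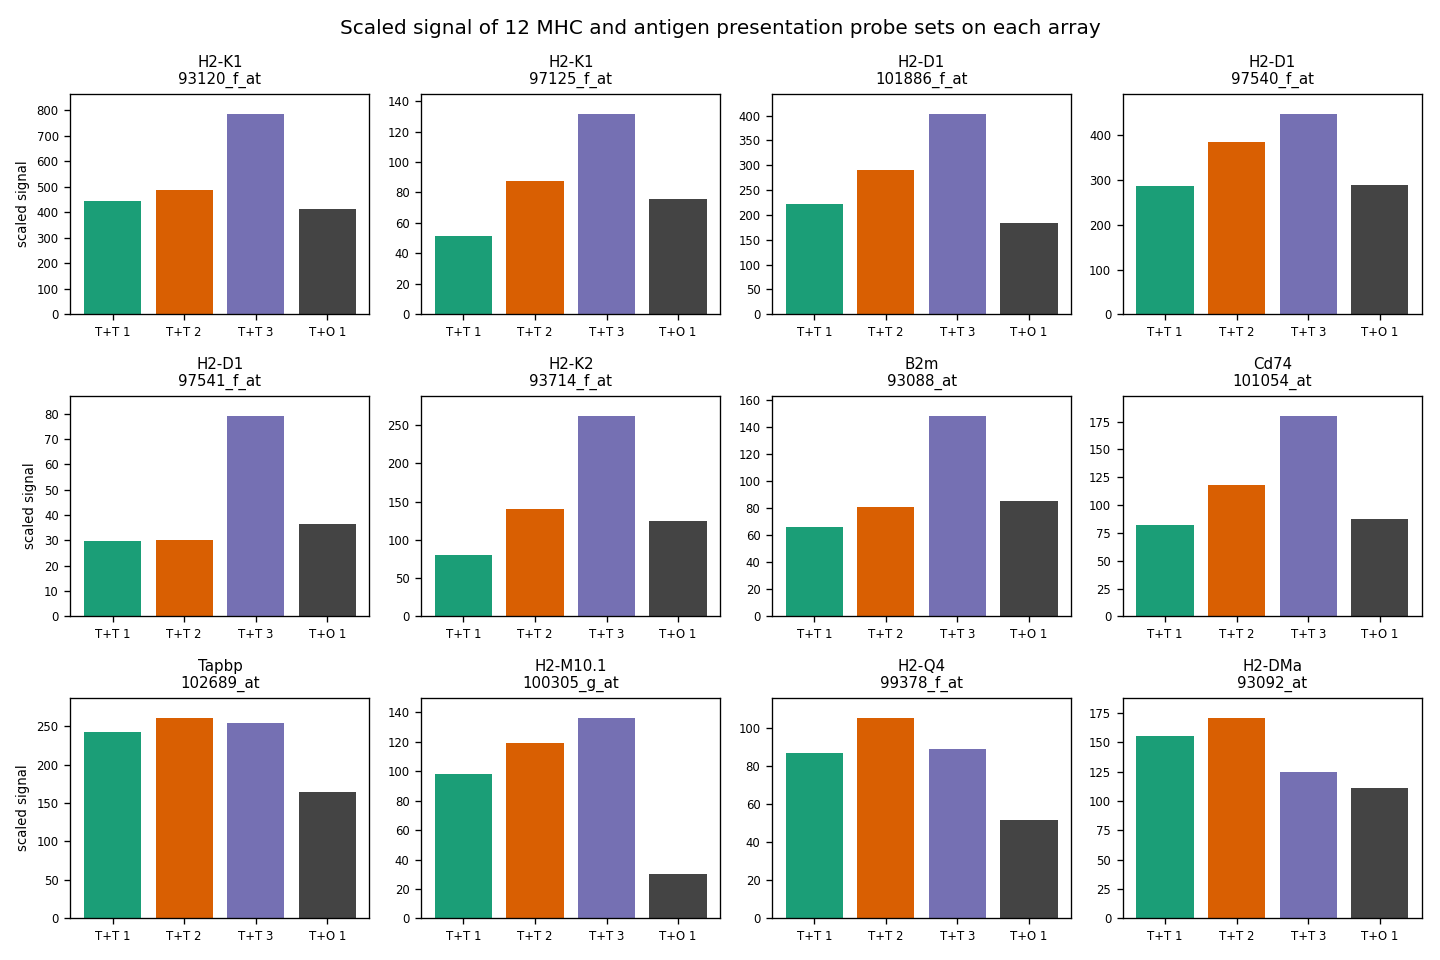
Scaled signal of 12 probe sets on each array, T+T replicates 1 to 3 and then T+O, each panel with its own axis from 0. The family probe sets of H2-K1 and H2-D1, and H2-K2, B2m and Cd74, peak on T+T replicate 3 (785 for H2-K1 93120_f_at). Tapbp 102689_at, H2-M10.1 100305_g_at and H2-Q4 are higher on all 3 T+T arrays than on T+O.

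The other class I genes (14 genes, 18 probe sets) held the members set apart from T+O on every T+T array, and 13 of 18 lay above T+O on all 3. H2-M10.1, a non-classical class I gene of a family known from vomeronasal neurons, had 97.9, 119 and 136 in T+T and 29.9 in T+O on probe set 100305_g_at. The T+T signals exceeded T+O by 3.27-fold to 4.55-fold, with a difference of 1.67 ± 0.25 (SE; limma, adjusted p = 0.13). It passed without T+T replicate 1 (1.79, limma adjusted p = 0.0014), and over all alternatives the adjusted p ranged from 0.0014 to 0.98. Its other 2 probe sets did not follow in size. Probe set 100304_at had 89.5, 79.7 and 81.3 in T+T and 70.9 in T+O, a difference of 0.21 ± 0.22 (SE). Probe set 100303_at failed the filter, with 22.8, 11.0 and 10.5 in T+T and 6.40 in T+O.

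Of the 6 probe sets of the Q and T families of non-classical class I genes, 5 lay above T+O on all 3 T+T arrays, and their gaps varied between arrays. H2-Q4 had 86.7, 105 and 89.0 in T+T and 51.8 in T+O, 1.5-fold higher on each T+T array, with a difference of 0.74 ± 0.23 (SE; limma, adjusted p = 0.45). H2-Q5 had 39.5, 45.2 and 65.1 in T+T and 23.1 in T+O, a difference of 0.83 ± 0.33 (SE; limma, adjusted p = 0.60). H2-Q1 had 22.9, 24.7 and 17.8 in T+T and 16.2 in T+O and failed the filter on dim signals. H2-Q10, which encodes a secreted class I protein of the liver, had 63.1, 59.0 and 46.0 in T+T and 49.7 in T+O, so that the groups overlapped. H2-T18 had 191, 204 and 168 in T+T and 139 in T+O, a difference of 0.40 ± 0.20 (SE). H2-T24 failed the filter, at 17.8, 21.6 and 5.61 in T+T and 4.02 in T+O. H2-Bl had 205, 167 and 199.8 in T+T and 140.1 in T+O, a difference of 0.41 ± 0.21 (SE).

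The remaining heavy chain genes were mixed. H2-K2, a copy of H2-K1, followed the H2-K1 family probe sets with 80.5, 140.2 and 262 in T+T and 125 in T+O, so that T+T replicate 1 was the lowest array and T+T replicate 3 the highest. H2-D4 had 14.3, 23.7 and 40.8 in T+T and 11.6 in T+O on its family probe set, and its second probe set stayed under 5 on every array. H2-M3, which presents formylated peptides of bacteria, had the lowest difference of this class on probe set 102731_g_at: 80.7, 34.6 and 63.6 in T+T and 75.5 in T+O, or -0.36 ± 0.39 (SE; limma, adjusted p = 0.89). Its other probe set failed the filter, at 22.3, 11.9 and 4.83 in T+T and 5.58 in T+O, and went the other way. H2-M2 had 81.7, 67.7 and 101 in T+T and 72.8 in T+O, and H2-M9 had 66.8, 67.7 and 47.8 in T+T and 43.1 in T+O. H2-M1 did not exceed 7.01 on any array.

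Beta-2 microglobulin and the loading machinery (4 genes, 7 probe sets) split between the pattern of the heavy chains and an even one. B2m had 65.7, 80.7 and 148 in T+T and 85.4 in T+O, a difference of 0.11 ± 0.39 (SE; limma, adjusted p = 0.98). Only T+T replicate 3 exceeded T+O, and without it the difference was -0.20. Tapasin, which holds class I next to TAP, had 242, 260.5 and 254 in T+T and 165 in T+O on probe set Tapbp 102689_at. The 3 T+T arrays lay close together above T+O, with a difference of 0.58 ± 0.18 (SE; limma, adjusted p = 0.45). Tapbp 162104_f_at had 160, 162 and 132 in T+T and 112 in T+O (0.39 ± 0.21, SE). Tapbp 100154_at had 538, 587 and 554 in T+T and 511 in T+O (0.13 ± 0.17, SE). All 3 tapasin probe sets were thus above T+O on every T+T array, by unequal amounts.

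Of the 3 TAP probe sets, 1 passed the filter. Tap1, the first subunit of the peptide pump, had 32.6, 38.2 and 43.5 in T+T and 28.3 in T+O on probe set 103035_at, a difference of 0.32 ± 0.32 (SE; limma, adjusted p = 0.87). Its second probe set 162278_r_at had 7.71, 20.6 and 22.98 in T+T and 22.86 in T+O and gave the opposite sign. Tap2, the partner subunit, had 3.57, 10.08 and 21.0 in T+T and 4.02 in T+O and failed the filter. Of the 9 member genes with more than 1 probe set, 3 had probe sets of opposite sign (Tap1, H2-M3 and H2-Ke6).

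Of the class II chains (6 genes, 6 probe sets), only H2-Eb1 passed the filter. H2-Eb1, the beta chain of the E molecule, had 8.86, 23.4 and 40.2 in T+T and 34.3 in T+O, a difference of -0.49 ± 0.55 (SE; limma, adjusted p = 0.89), with T+O inside the T+T range. H2-Aa, the alpha chain of the A molecule, had 9.43, 24.8 and 36.5 in T+T and 7.50 in T+O, a difference of 0.85. Its partner H2-Ab1 had 14.1, 17.6 and 19.8 in T+T and 13.7 in T+O, a difference of 0.19. In each of these 3 genes T+T replicate 1 was the lowest T+T array and replicate 3 the highest. H2-Ea, H2-Eb2 and H2-Pa stayed under 10 on every array and had differences from -0.14 to 0.07.

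Among the class II accessory genes (7 genes, 8 probe sets), the invariant chain gene Cd74 had 82.5, 118 and 179.98 in T+T and 87.3 in T+O. Its difference was 0.43 ± 0.37 (SE; limma, adjusted p = 0.85), with T+T replicate 1 next to T+O and replicate 3 at 2.06-fold the T+O signal. Ciita had 9.78, 8.23 and 41.2 in T+T and 26.9 in T+O, so its signal was under the filter level of 22.7 on 2 arrays. It failed the filter, and its difference of -0.48 hid a T+T replicate 3 above T+O. H2-DMa, the DM alpha chain, had 156, 171 and 125 in T+T and 111 in T+O on probe set 93092_at, a difference of 0.39 ± 0.23 (SE; limma, adjusted p = 0.75). This probe set was lowest in T+O, and within T+T lowest on replicate 3, unlike Cd74. Its second probe set 162346_f_at had 24.3, 21.6 and 31.9 in T+T and 19.1 in T+O, and passed the filter only through T+T replicates 1 and 3. H2-DMb1 had 72.9, 68.6 and 59.7 in T+T and 66.8 in T+O, a difference of 0.002. H2-DMb2, the member with the lowest difference at -0.63, had 20.8, 13.7 and 8.10 in T+T and 26.6 in T+O and failed the filter. H2-Oa, the alpha chain of the DM inhibitor DO, had 40.6, 13.1 and 35.5 in T+T and 11.5 in T+O, the highest difference of this class at 0.81 ± 0.52 (SE; limma, adjusted p = 0.78). The T+O signal of H2-Oa was under the filter level of 22.7, so it was tested only because of T+T replicates 1 and 3. Its partner H2-Ob had 4.83, 17.6 and 5.61 in T+T and 2.93 in T+O, with its peak on another array than H2-Oa.

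The lipid-presenting CD1d genes failed the filter: Cd1d1 had 3.11, 11.7 and 7.79 in T+T and 7.23 in T+O, and Cd1d2 had 4.03, 5.31 and 5.53 in T+T and 2.47 in T+O. H2-Ke6, which despite its name encodes a hydroxysteroid dehydrogenase and presents no antigen, had 89.1, 60.8 and 78.1 in T+T and 80.2 in T+O on probe set 102991_s_at, a difference of -0.08 ± 0.26 (SE; limma, adjusted p = 0.97). Its other probe set did not exceed 12.7.

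**Figure D3:**
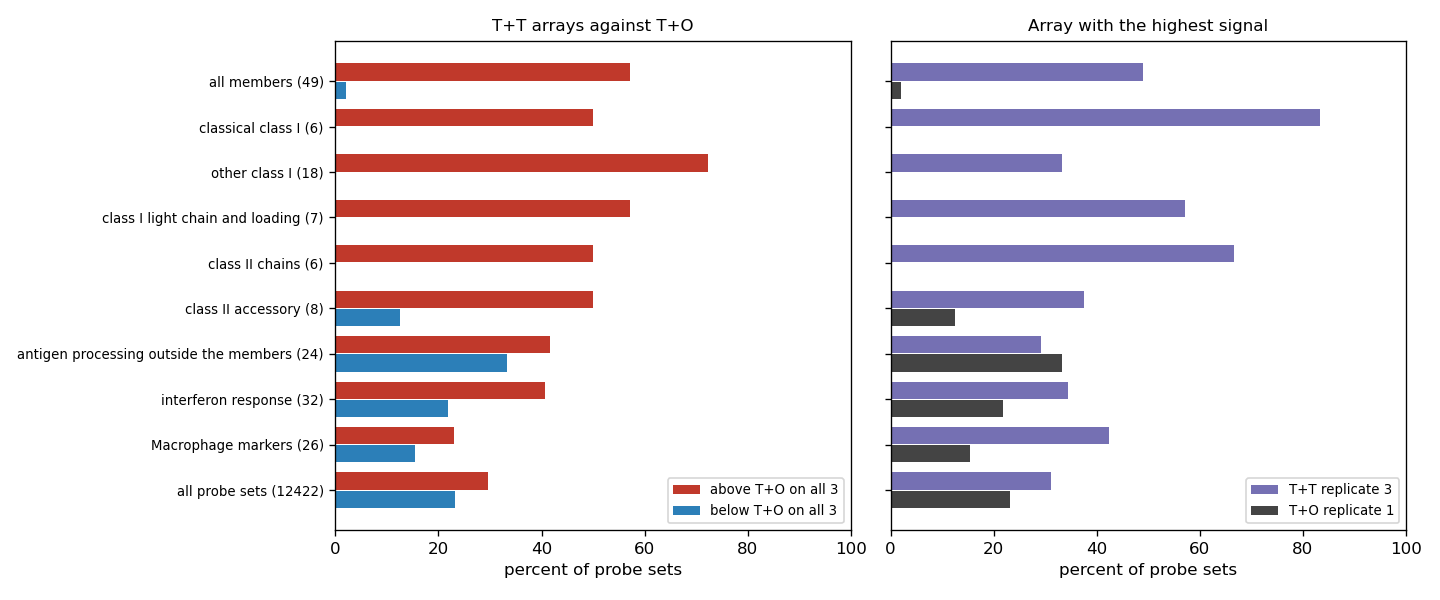
Percent of probe sets above or below T+O on all 3 T+T arrays (left) and with their highest signal on T+T replicate 3 or on T+O (right), by class and list, with the number of probe sets in brackets. The members stand at 57.1% above and 2.04% below T+O, against 29.7% and 23.2% over all probe sets. The T+O bars on the right repeat the bars for below T+O on the left.

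The summed signal of all 49 members was 3853, 4257 and 5108 in T+T and 3322 in T+O. T+T replicate 3 was the highest of the 4 arrays for 24 of 49 members (49.0%, against 31.2% of all probe sets). T+O was the highest for 1 (2.04%, against 23.2%), which is the count below T+O on all 3 T+T arrays given again. With median scaling, which lowered the share of all probe sets peaking on T+T replicate 3 to 20.1%, the count for this array was 21. With quantile scaling it was 21 against 24.3%. The classes differed: among the 18 other class I probe sets T+T replicate 1 was the highest array for 7 and T+T replicate 3 for 6. With median scaling, the members' median difference from the mean of the other 3 arrays was 0.17 for T+T replicate 2 and 0.12 for T+T replicate 3. At least 1.5-fold above each of the other 3 arrays on T+T replicate 3 were 6 members (12.2%, background 2.13%): H2-K1 93120_f_at, H2-D1 97541_f_at, H2-K2, H2-D4 101653_f_at, B2m and Tap2. On T+T replicate 1 there was 1 such member (background 1.21%), and on T+T replicate 2 there was 1 (background 0.998%). On T+O there were 0 (background 2.48%), again the count of members 1.5-fold lower on all 3 T+T arrays. The count on T+T replicate 3 was 3 with median scaling and 4 with quantile scaling. Of these 6, 4 are family probe sets of heavy chains. A further 12 probe sets carry several symbols including an MHC one and are no members, and 10 of them were highest on T+T replicate 3. Their summed signal was 562, 701 and 983 in T+T and 529.6 in T+O. The summed signal of the 6 classical class I probe sets was 1051, 1316 and 1881 in T+T and 1005 in T+O.

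The other genes of antigen processing had 24 probe sets of 17 genes (23 genes listed). Of the 17 probe sets with enough signal, 0 passed the test in either direction (limma). An unadjusted p under 0.05 (limma) was found for 3, where 581 of all 7453 probe sets tested had one. Of the 24, 10 lay above T+O on all 3 T+T arrays (41.7%, against 29.7% of all probe sets) and 8 below (33.3%, against 23.2%). The median difference was 0.08. T+T replicate 3 was the highest array for 7 of the 24 (29.2%, against 31.2%), and 1, Ctss, was 1.5-fold above each other array there. The summed signal was 3119, 3584 and 3398 in T+T and 3436 in T+O. The highest differences were those of the lysosomal protease Ctsb on probe set 162271_f_at (0.84), which failed the filter, and of Psmb8 (0.70). The lowest were those of the proteasome activator Psme3 (-0.63) and the peptide-cleaving protease Ide on probe set 94380_at (-0.56). Ide had -0.42 on 160290_at and the opposite sign, 0.28, on 162160_at. The other 3 probe sets of Ctsb differed in sign, at 0.68, -0.20 and -0.28. The immunoproteasome subunit gene Psmb8, which neighbours the TAP genes, had 23.2, 31.2 and 34.9 in T+T and 14.4 in T+O. The class II protease gene Ctss had 28.8, 22.95 and 57.1 in T+T and 28.8 in T+O, with its peak on T+T replicate 3. Ctss is named outside the rule, after its values were seen.

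Of 32 probe sets of 29 interferon response genes (33 listed), 0 of the 12 tested passed in either direction (limma). An unadjusted p under 0.05 (limma) was found for 1, where 581 of all 7453 probe sets tested had one. Of the 32, 13 lay above T+O on all 3 T+T arrays (40.6%, against 29.7% of all probe sets) and 7 below (21.9%, against 23.2%). The median difference was 0.10. The kinase Tyk2 had the highest difference, with 137, 157 and 183 in T+T and 62.3 in T+O (1.22; limma, adjusted p = 0.21), followed by Psmb8. The GTPase gene Irgm1 had the lowest, at 1.04, 3.18 and 5.92 in T+T and 12.2 in T+O, followed by Mx1 at -0.63. On T+T replicate 3, 11 of the 32 had their highest signal (34.4%, against 31.2%), and 0 were 1.5-fold above each other array. The summed signal was 941, 1077 and 1148 in T+T and 859 in T+O.

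In whole testis, more cells of a type and more RNA per cell cannot be told apart. Of 26 macrophage probe sets (17 genes), 11 were highest on T+T replicate 3 (42.3%, against 31.2% of all probe sets; 10 with median scaling), 3 of them at least 1.5-fold above each other array: both of Adgre1, which encodes the macrophage antigen F4/80, and 1 of the lysozyme gene Lyz2. Adgre1 103507_at had 4.60, 5.97 and 22.8 in T+T and 5.49 in T+O, and Lyz2 100611_at had 19.2, 22.3 and 44.8 in T+T and 21.3 in T+O. The other 8 were probe sets of the complement genes C1qa, C1qb and C1qc and of Cd68, Mrc1, Laptm5, Tyrobp and Ptprc. C1qa had 80.05, 95.3 and 108 in T+T and 63.1 in T+O, C1qc had 50.1, 103 and 123 in T+T and 96.9 in T+O, and Cd68 103016_s_at had 37.2, 45.6 and 62.6 in T+T and 39.3 in T+O. Peaks elsewhere included Csf1r 104354_at, with 62.6, 56.1 and 53.7 in T+T and 45.8 in T+O, and Cx3cr1, with 91.4, 89.8 and 74.95 in T+T and 75.6 in T+O. Cd14 had 149, 149 and 94.4 in T+T and 136 in T+O. T+O was the highest array for 4 of the 26 (15.4%, against 23.2%), among them second probe sets of Cd68, Lyz2 and C1qb. Cd68 162173_i_at had 1.73, 3.58 and 2.26 in T+T and 12.7 in T+O. Lyz2 162309_at had 2.42, 0.796 and 1.64 in T+T and 5.58 in T+O. C1qb 96020_at had 52.4, 52.0 and 53.0 in T+T and 56.2 in T+O. The summed signal of the macrophage list was 1513, 1784 and 1578 in T+T and 1534 in T+O, of which the single Aif1 probe set gave 729, 929 and 632 in T+T and 777 in T+O. Without Aif1, a choice made after seeing the data, the sum was 784, 855 and 946 in T+T and 757 in T+O, 1.25-fold the T+O sum on T+T replicate 3. The pan-leukocyte gene Ptprc stayed between 0.265 and 3.35 on its 3 probe sets. Summed signals were 404, 453 and 362 in T+T and 298 in T+O for B cell markers (23 probe sets), 214, 175 and 187 in T+T and 187 in T+O for T and NK cell markers (12), and 403, 391 and 437 in T+T and 358 in T+O for dendritic cell markers (7). They were 402, 309 and 379.7 in T+T and 279.96 in T+O for endothelial markers (12), and 2897, 3356 and 3371 in T+T and 2959 in T+O for Sertoli markers (9), of which 7 were highest on T+T replicate 3 (3 with median scaling; 31.2% of all probe sets, 20.1% with median scaling). Leydig markers (9) summed to 409, 331 and 441 in T+T and 395 in T+O, and germ cell markers (14) to 33800, 36180 and 28457 in T+T and 28124 in T+O. Few probe sets made up much of some sums. Cd4 gave 99.8, 70.7 and 82.3 in T+T and 77.8 in T+O of the T and NK cell sum. Flt3 95296_r_at gave 148, 124 and 170 in T+T and 107 in T+O of the dendritic cell sum. Clu 95286_at gave 1566, 1874 and 1737 in T+T and 1589 in T+O of the Sertoli sum. The part of any of these marker lists in the MHC signals was not tested.

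**Figure D4:**
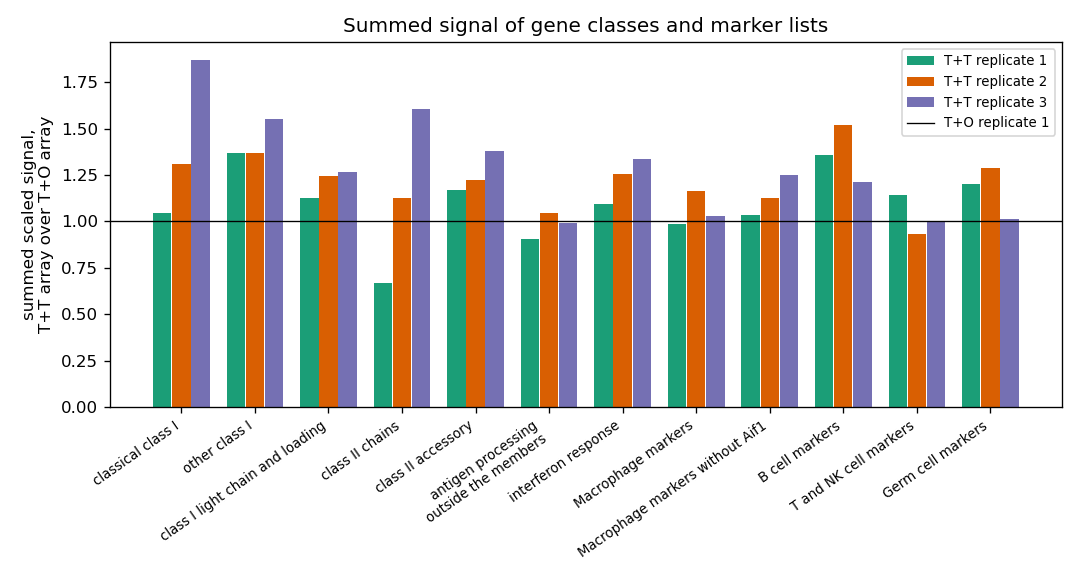
Summed scaled signal of each class or marker list on each T+T array, divided by that on the T+O array (line at 1). Classical class I reaches 1.87 on T+T replicate 3, where the macrophage list stands at 1.03 with Aif1 and at 1.25 without it, and the antigen processing list at 0.989.

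T+T replicate 1 and T+O replicate 1 are the pair whose titles and descriptions match, and by description they differ by the renewed testosterone of 4 hours. The 2 weeks of first treatment are stated for T+O replicate 1 but not for T+T replicate 1. The 3′ to 5′ ratio of pyruvate carboxylase also differed, at 1.93 in T+T replicate 1 and 3.76 in T+O. In this pair of single arrays, with no replicate check, 6 of the 49 members were at least 1.5-fold higher in T+T replicate 1 (background 7.91%) and 3 at least 1.5-fold lower (background 11.0%). Both directions together gave 9 members (18.4%), near the background of 18.9%. More members were higher than lower, the reverse of all probe sets. Higher were H2-M10.1 (100305_g_at and 100303_at, by 1.44 and 1.00 on the log2 scale), H2-Oa (1.23), H2-M3 102730_at (1.05), H2-T24 (0.99) and H2-Q4 (0.65). Lower were H2-Eb1 (-1.23), Ciita (-0.90) and Tap1 162278_r_at (-0.89). None of the 6 classical class I probe sets was 1.5-fold apart in this pair. If the descriptions of T+T replicates 2 and 3 are taken at their word and both count as withdrawn, T+T replicate 1 was above all 3 other arrays for 11 members (background 24.6%) and below all 3 for 10 (background 25.6%). Under that reading the members' median difference was -0.0038, the same side of 0 as the median over all probe sets of -0.0037, and no member passed in limma (lowest adjusted p = 0.92, 3 with an unadjusted p under 0.05).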

How the data were processed

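Signals of 12488 probe sets on 4 arrays were used as deposited. They are intensities on a linear scale in the deposited table; the array type is read from probe set names, and the software and scaling behind them are not given in the sources used here. Detection calls were not analysed here. The 66 control probe sets were left out, which left 12422, and each array was scaled to the mean of the 4 trimmed means (2% removed at each end). An offset of 10 (25th percentile) preceded log2. For testing, probe sets with a mean signal above 22.7 (40th percentile) were kept (7453 in all, 29 of the 49 members). T+T minus T+O was fitted over all 4 arrays with limma 3.58.1 in R 4.3.3 (lmFit, eBayes with intensity trend). Tests were two-sided, and p-values were adjusted by Benjamini-Hochberg over all 7453, at a threshold of 0.05. T+O, with a lone array, takes its spread from T+T (2 residual and 5.74 prior degrees of freedom). The number of arrays limits the precision. The fit was tested on simulated data.

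Probe sets with 1 symbol (10833) were named from the platform annotation, with names updated by gene ID through RefSeq (GRCm38.p6, 10817 matched). Another 396 carried several symbols and 1193 are unnamed here. Groups and the T+T numbers 1 and 2 come from titles, and number 3 was given in accession order. Every member could be named, with standard errors for members past 1.5-fold on all 3 T+T arrays, the highest and lowest of each class and a list of textbook genes. Of each pathway list at most the 2 highest and 2 lowest were named by rule. Members, lists and tests were chosen with earlier results of these data known. Alternatives were other scalings, offsets, filters, a fit without the trend, other readings of the labels, plain _at probe sets and leaving out each T+T array. The counts above or below T+O at any size were chosen after seeing the data.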

Additional observations from a re-analysis of the deposited data

How the results depend on the processing

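No paired analysis was possible because T+O has 1 array, whose number pairs it with nothing. The main limits are the lone T+O array, unsettled labels of T+T replicates 2 and 3, shared probes among class I members, and dim signals, since 20 of 49 members failed the filter. Of all probe sets past the adjusted threshold (2), there were 6 with median scaling and with an offset of 35, 0 with quantile scaling, with no filter, without the intensity trend and with the descriptions followed (T+T replicates 2 and 3 counted as withdrawn), and 1 to 63 when 1 T+T array was left out (63 without replicate 1, 12 without replicate 2, 1 without replicate 3). Members past it numbered 0 under every alternative except without T+T replicate 1, where H2-M10.1 100305_g_at passed (0 to 1 over the 3 arrays left out in turn). Percentages in brackets below are the background shares under the same setting. The 2 members 1.5-fold higher on all 3 T+T arrays (1.73%) became 4 with quantile scaling (1.79%) and 1 with an offset of 35 (0.459%). They became 1 with the descriptions followed (1.21%), 0 among plain _at probe sets (1.74%), and 3 to 8 with an array left out (3.03% to 3.21%). The 0 members 1.5-fold lower (2.48%) became 2 with the descriptions followed (2.13%) and 0 to 1 with an array left out (3.22% to 5.57%). The 28 members above T+O (29.7%) became 16 of 27 plain probe sets (29.9%) and 17 of 29 that pass the filter (29.5%). They became 11 with the descriptions followed (24.6%), and 31 to 34 with an array left out (37.2% to 38.5%). The 1 member below T+O (23.2%) became 3 with median (25.5%) and with quantile scaling (24.4%). It became 0 among plain probe sets (23.7%) and among those that pass the filter (23.7%). The count was 10 with the descriptions followed (25.6%), and 1 to 7 with an array left out (28.6% to 33.4%). The median difference of 0.27 became 0.17 with an offset of 35, -0.0038 with the descriptions followed, and 0.20 to 0.34 with an array left out. Over all probe sets the median was 0.03, 0.02, -0.0037 and 0.02 to 0.04 in the same order. The 9 members 1.5-fold apart between T+T replicate 1 and T+O (18.9%) became 3 with an offset of 35 (6.67%).

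With the descriptions followed, 14 of 29 tested members changed sign: B2m to -0.55, Tap1 103035_at to -0.12, Tapbp 100154_at to -0.031, Cd74 to -0.53, H2-D1 101886_f_at, 97540_f_at and 97541_f_at to -0.32, -0.35 and -0.47, H2-K1 93120_f_at, 97125_f_at and 97700_at to -0.28, -0.79 and -0.27, H2-K2 to -0.96, H2-Q5 to -0.062, H2-M3 102731_g_at to 0.47 and H2-Ke6 102991_s_at to 0.26. With 1 T+T array left out in turn, B2m ranged from -0.20 to 0.33, H2-D1 97541_f_at from -0.22 to 0.36, H2-K1 97125_f_at from -0.15 to 0.45 and H2-K2 from -0.21 to 0.59, each negative without replicate 3. H2-DMb1 ranged from -0.053 (without replicate 1) to 0.073, with -0.014 without replicate 2 and -0.023 with median scaling, and H2-Ke6 102991_s_at from -0.19 to 0.051 (without replicate 2). The cause was not tested. Adjusted p-values (limma) of these members ranged from 0.12 to 1.00 over the alternatives.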
